A study of Mus musculus with 10 samples.

Results

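Regions of accessible chromatin within 1 kb of the start of a protein-coding gene were examined in mature mouse sperm. Peak intervals of the 10 sperm libraries were merged where they overlapped by at least 1 bp, and regions of chromosomes 1 to 19 with a peak in at least 2 libraries were kept, which gave 24550 consensus regions. A region was counted as a protein-coding promoter region when its nearest annotated transcript start belonged to a protein-coding gene and lay within 1 kb, a start inside the region having distance 0. Every annotated transcript start was used, internal ones included, so many of these regions lie inside genes. This gave 922 promoter regions, 3.76% of the consensus regions, and they named 868 of the 20807 protein-coding genes on the autosomes (4.17%). Of these regions, 56 had a GC content of 60% or more and are called GC-rich here, and 866 lay under 60%. Neither the distance nor the GC content uses a peak height or a diet.

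Chromatin accessibility had been profiled by ATAC-seq, in which a transposase cuts exposed DNA, in sperm from the cauda epididymis of wild type C57BL/6JRccHsd males. The F0 CD males (6 libraries) received a Chow diet with 14% protein, and the F0 WD males (4 libraries) a Western diet with 40% of its energy from fat and 43% from carbohydrate. Both diets began at 4 weeks of age and lasted 6 months. Each library came from 1 male, so the replicates are separate mice. The study used the diet contrast to ask whether obesity of the father alters sperm chromatin. The question addressed here is how often peaks lay near annotated protein-coding starts in these libraries. It is also asked whether GC-rich promoter regions differed from the others, and whether either kind differed between the diets.

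A promoter is the stretch of DNA around a transcription start where the transcription machinery assembles, and many mammalian promoters are CpG islands, that is GC-rich DNA with a high density of the dinucleotide CG that is mostly kept free of methylation. In sperm most histones have been replaced by protamines, which pack the DNA tightly, and transcription is silent. Some nucleosomes remain, and retention at CpG-island promoters has been described, while the position of these nucleosomes has been debated. Small fragments such as those used for these peaks come mainly from DNA that is free of nucleosomes.

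The lists held 13366 to 29532 peaks. They give no read totals, and the depth is visible in them only as the lowest background, which was 2.11 to 4.42 reads per 200 bp. The number of reads at a summit was solved from the fold enrichment, taken as given, with -log10 p to be met to within 0.001. This was possible for 2993 of the 3094 peaks at promoter regions (96.7%). These summits held 9 or more reads, with a median of 17, so a promoter region typically rested on few reads per library and its absence from a list is not an absence of cutting. Each library pools many sperm, so a region open in fewer sperm and a region less open in each cannot be told apart. Among markers of other cell types, 1 of 9 testicular germ cell genes (Stra8, 11.1%), 1 of 20 epididymal genes (Gpx5, 5.00%) and 1 of 13 leukocyte genes (Laptm5, 7.69%) had a promoter region, beside 1 of 33 spermatid and sperm genes (Catsper3, 3.03%) and 4.17% of all protein-coding genes. These 4 regions were found in 2 or 3 libraries each. A peak within 1 kb in any library, 1 being enough, was present at 44.4% of the testicular, 25.0% of the epididymal and 30.8% of the leukocyte genes, against 9.09% of the spermatid and sperm genes and 22.7% of all genes. Since mature sperm do not transcribe, an open promoter is not a measure of expression, and the part of other cells in the results was not tested.

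The sequences below are 300 bases around the strongest summit of 6 promoter regions, read from the plus strand of GRCm38 (mm10), with every CG in capitals and all other bases in lower case. The first pair are GC-rich regions, chosen after their values were seen, because they were found in the most libraries among the GC-rich. Zfp513 codes for a zinc finger transcription factor and Tnnt1 for troponin T of slow skeletal muscle.
Zfp513, chr5:31200279-31200578: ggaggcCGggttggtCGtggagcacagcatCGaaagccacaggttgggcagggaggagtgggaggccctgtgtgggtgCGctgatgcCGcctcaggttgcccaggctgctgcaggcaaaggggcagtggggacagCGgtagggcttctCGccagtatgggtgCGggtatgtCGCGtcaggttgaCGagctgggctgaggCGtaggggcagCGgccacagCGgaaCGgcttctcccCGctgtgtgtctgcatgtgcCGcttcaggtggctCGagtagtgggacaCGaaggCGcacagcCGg
Tnnt1, chr7:4507864-4508163: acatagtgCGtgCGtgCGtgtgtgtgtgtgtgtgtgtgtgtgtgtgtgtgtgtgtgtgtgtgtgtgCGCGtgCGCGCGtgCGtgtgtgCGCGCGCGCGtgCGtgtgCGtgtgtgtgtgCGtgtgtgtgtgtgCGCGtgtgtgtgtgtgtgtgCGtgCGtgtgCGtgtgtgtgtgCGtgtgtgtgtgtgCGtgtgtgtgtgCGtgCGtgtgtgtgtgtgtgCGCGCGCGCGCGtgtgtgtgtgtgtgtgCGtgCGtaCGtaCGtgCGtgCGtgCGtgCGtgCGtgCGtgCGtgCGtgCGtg
The GC content of these windows came from different DNA. The Zfp513 window lay in a coding exon and held 21 CG, spread over the window. The Tnnt1 window held 45 CG inside runs of alternating CG and TG, and 92.5% of its region was marked as repeat in the genome.

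The next 3 are the regions with the highest median fold enrichment among the 34 promoter regions found in all 10 libraries, and every one of the 34 lay under 60% GC. Gm10717 is a predicted gene in repeat-rich DNA at the beginning of the chromosome 9 assembly, Sfi1 codes for a centrin-binding protein of the spindle poles, and Plcb4 for a phospholipase C.
Gm10717, chr9:3025393-3025692: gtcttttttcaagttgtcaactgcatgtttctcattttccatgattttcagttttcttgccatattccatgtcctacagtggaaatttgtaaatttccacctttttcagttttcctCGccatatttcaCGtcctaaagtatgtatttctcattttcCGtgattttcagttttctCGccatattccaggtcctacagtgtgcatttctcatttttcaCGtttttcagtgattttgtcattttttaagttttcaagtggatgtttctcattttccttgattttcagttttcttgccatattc
Sfi1, chr11:3142473-3142772: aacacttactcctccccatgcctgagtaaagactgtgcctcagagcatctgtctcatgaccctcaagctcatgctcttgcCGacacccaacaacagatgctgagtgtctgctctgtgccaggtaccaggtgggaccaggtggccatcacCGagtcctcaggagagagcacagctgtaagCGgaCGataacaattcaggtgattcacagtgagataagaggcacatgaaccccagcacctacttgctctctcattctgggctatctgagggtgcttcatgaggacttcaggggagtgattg
Plcb4, chr2:135988520-135988819: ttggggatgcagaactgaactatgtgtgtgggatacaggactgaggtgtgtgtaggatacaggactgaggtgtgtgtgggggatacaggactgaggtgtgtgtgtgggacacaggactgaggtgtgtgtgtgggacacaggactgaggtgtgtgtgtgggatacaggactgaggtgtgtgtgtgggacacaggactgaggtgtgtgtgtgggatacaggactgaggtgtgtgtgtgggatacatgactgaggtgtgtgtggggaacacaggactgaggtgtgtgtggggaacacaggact
These windows held 5, 4 and 0 CG, and the Plcb4 window was a tandem array of a short unit.

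The last is the first region in the F0 CD direction of the comparison of the diets. Slc6a12, a transporter of betaine and GABA, had its region found in 6 of 6 F0 CD libraries and 1 of 4 F0 WD libraries.
Slc6a12, chr6:121347066-121347365: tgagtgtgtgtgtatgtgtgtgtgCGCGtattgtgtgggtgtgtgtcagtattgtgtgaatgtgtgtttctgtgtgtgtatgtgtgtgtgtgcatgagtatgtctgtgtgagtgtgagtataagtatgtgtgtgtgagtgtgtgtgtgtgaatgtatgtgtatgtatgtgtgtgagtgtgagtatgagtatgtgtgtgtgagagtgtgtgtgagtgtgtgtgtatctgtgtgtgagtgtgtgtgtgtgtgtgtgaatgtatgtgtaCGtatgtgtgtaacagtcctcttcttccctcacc
It held 3 CG and was mostly a run of TG units with interruptions.

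Consensus summits were scarce directly at GC-rich gene starts. The starts of 9451 genes had a GC content of at least 60% in the 301 bp around them, and within 250 bp of these starts there were 10 consensus summits, which is 2.12 per kb per 1000 genes. The density rose with distance, to 6.14 at 250 to 500 bp, 6.45 at 500 to 1000 bp, 7.62 at 1 to 2 kb and 9.68 at 2 to 5 kb. Around the starts of the 11356 genes under 60% GC the density was 7.57 within 250 bp, 8.10 at 250 to 500 bp, 8.54 at 500 to 1000 bp, 11.1 at 1 to 2 kb and 9.86 at 2 to 5 kb. The gap between both kinds of start was widest within 250 bp, and beyond 2 kb their densities were close. These are counts over genes, which are not replicates, and they are given without a test.

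**Figure D1:**
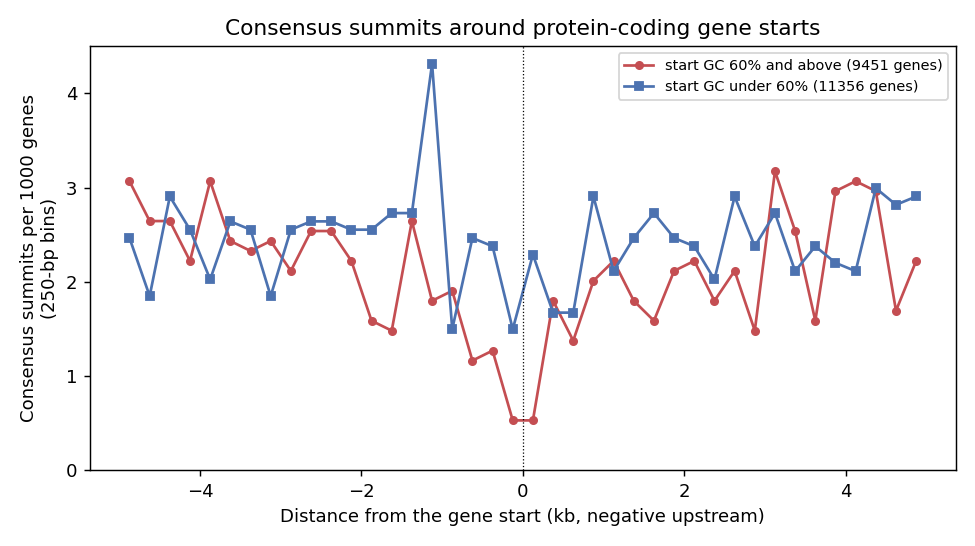
Consensus summits per 1000 genes in bins of 250 bp (vertical axis) against the distance from the gene start in kb, negative upstream, for the 9451 genes with start GC of 60% and above (red circles) and the 11356 genes under 60% (blue squares). The red line falls to 0.529 in both bins next to the start, where the blue line is higher, at 2.29 on the downstream side, and the highest blue bin, 4.31, lies 1000 to 1250 bp upstream.

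The same was seen when the genome was divided into tiles of 300 bp. Among tiles within 1 kb of a protein-coding start, 0.182% of the 36792 GC-rich tiles and 0.265% of the 277401 others held a consensus summit. Farther from starts the order was the opposite, with 0.827% of 42324 GC-rich tiles and 0.307% of the other tiles. In single libraries the GC-rich promoter tiles held a summit 0.567 to 1.25 times as often as the other promoter tiles (median 0.859), with the ratio below 1 in 7 of 10 libraries. The corresponding ratio away from starts was 2.36 to 3.55 (median 2.86) and lay above 1 in 10 of 10 libraries. The promoter tiles under 60% GC held a summit about as often as other DNA under 60%, with ratios of 0.927 to 1.15 (median 1.04). Within 1 kb the share of GC-rich tiles with a consensus summit was 0.131% up to 250 bp from the start, 0.222% from 250 to 500 bp and 0.329% beyond. For the other promoter tiles these shares were 0.200%, 0.277% and 0.293%.

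**Figure D2:**
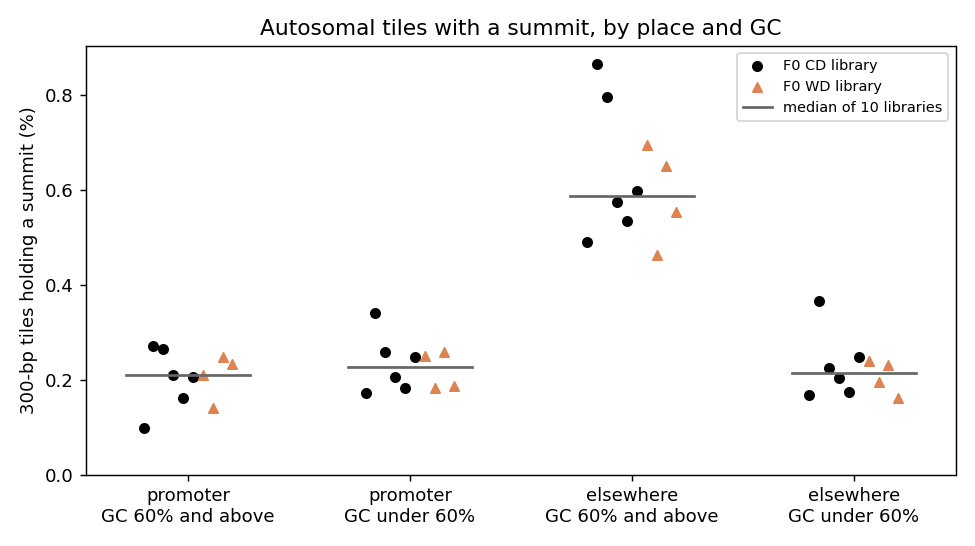
Percent of 300-bp tiles of the autosomes that held a peak summit (vertical axis, from 0) in each F0 CD library (black circles) and F0 WD library (orange triangles), for tiles within 1 kb of a protein-coding start and elsewhere, by GC content. Lines are medians of the 10 libraries, at 0.209%, 0.226%, 0.586% and 0.214% from left to right, and only the GC-rich tiles away from starts stand above the rest in the 10 libraries.

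A GC-rich start was not a requirement for a promoter region at some annotated start of the gene. Of the genes with a GC-rich start, 426 (4.51%) had a promoter region, and of the genes under 60%, 442 (3.89%). The lowest share was that of the 1424 genes with start GC under 40%, of which 26 (1.83%) had one. Each gene had a single start GC, while its promoter region could lie at any annotated start. Around the GC-rich starts themselves, consensus summits numbered 10 within 250 bp, 29 at 250 to 500 bp and 61 at 500 to 1000 bp. Around the other starts they numbered 43, 46 and 97. Many of the genes thus had their promoter region at another start, and these shares do not describe the DNA at the start itself. The promoter regions were mostly not in GC-rich DNA themselves, since 6.07% of them were GC-rich while 45.4% of the genes had a GC-rich start.

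GC-rich promoter regions were found in fewer libraries than the other promoter regions. Of the 56, 45 (80.4%) were found in 2 libraries, the least the selection allowed, and none in more than 6. Of the 866 others, 460 (53.1%) were found in 2 libraries, 182 in 5 or more and 34 (3.93%) in all 10. The other 23628 consensus regions had 45.6% in 2 libraries and 2.01% in all 10. Of the 371 GC-rich consensus regions that are not promoter regions, 53.4% were found in 2 libraries, 22.9% in 5 or more and 4.31% in all 10.

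**Figure D3:**
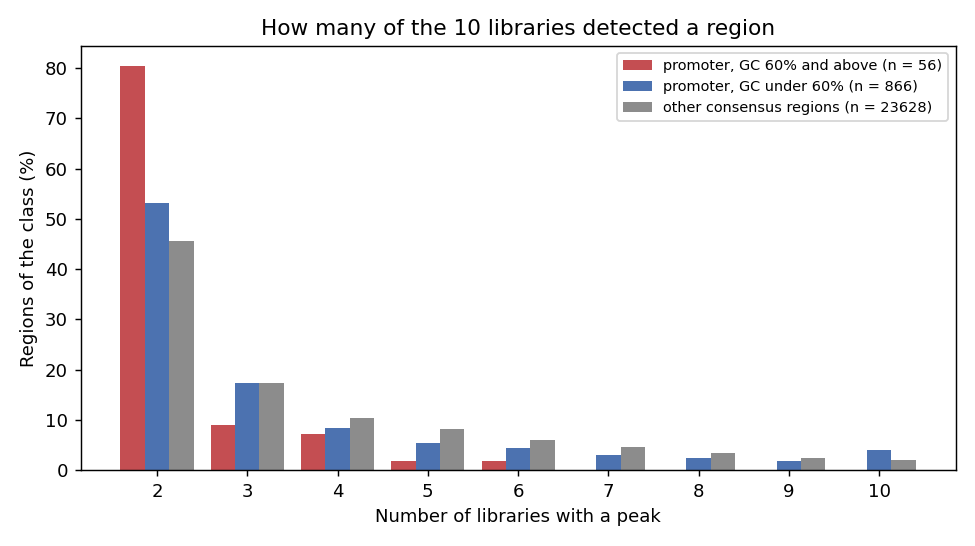
Percent of regions (vertical axis, from 0) by the number of the 10 libraries with a peak, for GC-rich promoter regions (red, n = 56), other promoter regions (blue, n = 866) and all other consensus regions (grey, n = 23628). The red bars end at 6 libraries, and the blue bar at 10 libraries (3.93%) is higher than the grey (2.01%).

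Detection per library was compared with the library as the replicate. The regions had been chosen by detection in these same libraries, so the values restate the library counts above library by library. The test covers agreement between libraries alone. In the F0 CD libraries 14.3% to 35.7% of the GC-rich promoter regions had a peak (median 24.1%), and 26.4% to 49.9% of the others (median 33.9%). The values in F0 WD replicates 1 to 4 were 17.9%, 14.3%, 30.4% and 23.2% for the GC-rich regions and 36.4%, 31.4%, 36.4% and 25.4% for the others. Detection of the GC-rich regions was the lower one in 9 of 10 libraries, F0 CD replicate 3 being the exception with 35.7% against 33.1%. The mean difference was -10.6 percentage points (SD 8.97, n = 10, exact paired permutation test, two-sided, p = 0.00781, adjusted p = 0.0195 over the 10 tests made). With 65% GC as the limit, which leaves 15 GC-rich regions, the difference was -10.4 percentage points and no longer passed (exact permutation p = 0.0703).

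Peaks at GC-rich promoter regions were also weaker. The fold enrichment is the ratio of reads at a summit to the local background, with 1 added to both. Its median over the GC-rich regions was 3.17 to 4.36 in the 10 libraries, and over the other promoter regions 3.50 to 4.53. It was lower for the GC-rich regions in 9 of 10 libraries, with F0 CD replicate 5 as the exception (3.96 against 3.75). The mean difference was -0.338 (SD 0.251, n = 10, exact paired permutation test, two-sided, p = 0.00586, adjusted p = 0.0195). In reads at the summit the medians were 15 for the GC-rich regions and 17 for the others, close to the fewest reads of a called summit, 9 to 13 across the lists. With the best 13366 peaks of every list the difference fell to -0.198 and did not pass (exact permutation p = 0.0605).

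The summits of GC-rich promoter regions lay nearer to the start. Their median distance from the nearest protein-coding start was 174 to 448 bp in the F0 CD libraries (median 318.5) and 531.5, 176.5, 469 and 336 bp in F0 WD replicates 1 to 4. For the other promoter regions the medians were 602 to 705 bp, above those of the GC-rich regions in 10 of 10 libraries. The mean difference was -314 bp (SD 135, n = 10, exact paired permutation test, two-sided, p = 0.00195, the smallest that 1024 sign changes can give, adjusted p = 0.0195). GC-rich DNA within 1 kb of a start was itself nearer to it, with a median of 173 bp for GC-rich tiles and 494 bp for the others, and the part of this in the difference was not tested.

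The median peak width in a library was 245 bp on average at GC-rich promoter regions and 258 bp at the others. The difference of -13.4 bp (SD 16.5, n = 10, exact paired permutation test, two-sided, p = 0.0156, adjusted p = 0.0312) was decided by F0 CD replicate 2, where the list was longest and the difference -53.5 bp. Without that library it was -2.39 bp (exact permutation p = 0.848), and in F0 WD replicates 1 and 2 the sign was the opposite, with 1 and 0.5 bp.

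**Figure D4:**
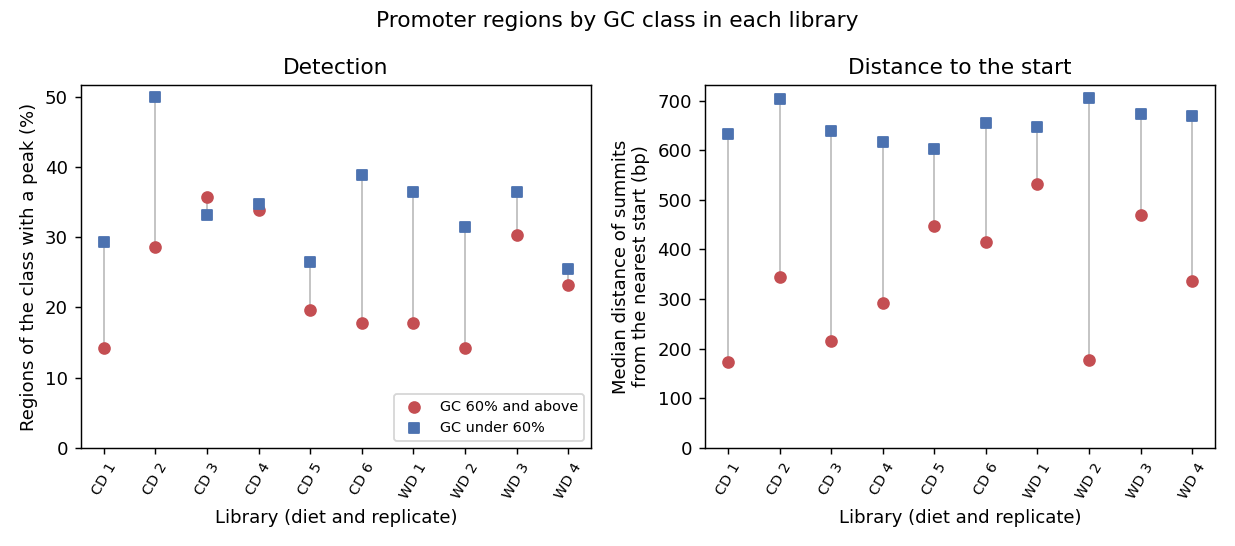
Left, percent of GC-rich promoter regions (red circles) and of other promoter regions (blue squares) with a peak in each library. Right, median distance in bp of their summits from the nearest protein-coding start. Grey lines join the values of 1 library, and both vertical axes begin at 0. The red point is the lower one in 9 of 10 libraries on the left and in 10 of 10 on the right.

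The change with GC content was gradual. The share of promoter regions found in 3 or more libraries was 74.1% under 40% GC (81 regions), 65.6% at 40 to 45% (154 regions), 50.4% at 45 to 50% (238 regions), 35.1% at 50 to 55% (228 regions), 27.3% at 55 to 60% (165 regions) and 19.6% at 60% and above. The median distance of the strongest summit from the start fell in the same order, from 762 to 319 bp. Repeat content moved with both, since the median share of bases marked as repeat was 90.8% under 40% GC, 55.6% at 45 to 50% and 4.61% at 60% and above. Its part in the detection was not tested. On the low side of the limit of 60% stood the regions of Kcnk13 (59.9%), AW822073 (59.9%) and Nup214 (59.8%), found in 2, 10 and 2 libraries, and on the high side those of Prss36 (60.0%), Dnajc4 (60.1%) and Actl6b (60.2%), found in 2 libraries each.

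The classes also differed in what their DNA was. The GC-rich promoter regions had a median of 4.61% of their bases marked as repeat, the other promoter regions 42.6% and the other consensus regions 70.4%. Uninterrupted stretches of 10 or more CA or TG units, a simple repeat common in this genome, lay in 4 of the 56 GC-rich regions (7.14%), in 361 of the 866 others (41.7%) and in 47.9% of the other consensus regions. The ratio of observed to expected CG, which is near or above 0.6 in CpG islands, reached 0.6 in 16 GC-rich regions (28.6%), in 82 of the others (9.47%) and in 5.66% of the other consensus regions. Most GC-rich promoter regions, 40 of 56, thus lay below this limit. Among the promoter regions under 60% GC, those with a CA or TG run were found in 3 or more libraries in 55.7% of 361 cases and those without in 40.6% of 505. Their median fold enrichment was 4.03 with a run and 3.76 without, and their median distance from the start 701 and 600 bp.

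GC-rich promoter regions lay more often over the start and downstream of it. A transcript start of a protein-coding gene fell inside 19 of the 56 (33.9%) and inside 104 of the 866 others. The strongest summit was upstream of its start in 12 GC-rich regions (21.4%) and in 453 of the others (52.3%). By the annotation, 19 GC-rich summits were in a coding exon, 22 in an intron, 6 in a 5′ UTR and 4 outside protein-coding transcripts, with the remaining 5 in noncoding exons and 3′ UTRs. Of the other summits, 598 (69.1%) were in an intron, 147 (17.0%) outside protein-coding transcripts and 58 (6.70%) in a coding exon. All annotated starts of protein-coding genes were used, so a summit in an intron can lie near an internal start.

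Letters of known promoter elements were rarer in the summits than at gene starts. Windows of 201 bp were searched on both strands for the GC box (GGGCGG), the CCAAT box (CCAAT), the TATA box (TATAAA), an E-box (CACGTG), the cAMP response element (TGACGTCA), an ETS site (CCGGAAGT) and the core of the NRF1 site (GCGCATGC), none of which contains another. The GC box was in 12 of the 56 GC-rich windows (21.4%), in 2.08% of the other promoter windows and in 1.33% of the windows of other consensus regions. Centred on the starts of all 20807 genes it was in 40.8%, and in 72.6% of the GC-rich starts. The CCAAT box was in 12.5% of the GC-rich and 10.6% of the other promoter windows against 28.1% at all starts. The cAMP response element was in 0 GC-rich windows and 1 other promoter window against 2.02% of all starts, and the ETS letters in 0 and 1 against 4.45%. The TATA box was in 1.79% and 4.85% of the windows against 8.17% of all starts, the E-box in 3.57% and 4.97% against 5.74%, and the NRF1 core in 0 and 0.462% against 2.75%. A match of letters does not show that a factor was bound.

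GC-rich regions were named where found in 4 or more libraries, a choice made after their values were seen. The Zfp513 region (chr5:31200252-31200680, GC 67.6%) was found in 6, with 19, 24, 17 and 15 reads at the summit in F0 CD replicates 1, 3, 4 and 6 and 14 and 17 in F0 WD replicates 1 and 4. It covers a start and lies in the protein-coding sequence. The Tnnt1 region (chr7:4507889-4508220, GC 62.0%) held 16, 13 and 19 reads in F0 CD replicates 1, 2 and 5 and 15 and 16 in F0 WD replicates 1 and 2. In both regions libraries of each diet were present, and the reads of the diets overlapped. The region of Ndnf, a secreted factor of neurons (chr6:65671300-65671569), was found in 2 libraries of each diet. Phf21b, which codes for a PHD finger protein (chr15:84790627-84791104), had its region in 1 F0 CD and 3 F0 WD libraries, and B3glct, a glucosyltransferase of thrombospondin repeats (chr5:149678735-149679112), in 3 and 1. Of the 6 such regions these 5 are described, and the median fold enrichment of the 6 was 3.22 to 5.26.

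The promoter regions found in all 10 libraries were of another kind. The 6 with the highest median fold were 2 regions of Gm10717 (chr9:3025390-3025691 and chr9:3032303-3032769), and regions of Sfi1 (chr11:3142472-3142804), Plcb4 (chr2:135988454-135988848), Gm10800 (chr2:98666195-98667393) and Gm10722 (chr9:2999921-3000741). The median fold at the first Gm10717 region was 16.3, with 14.1 to 17.9 in the 10 libraries. It was 13.2 for Sfi1 (9.94 to 16.1), 13.1 for Plcb4 (9.24 to 18.9), 12.2 for Gm10800 (11.9 to 12.4), 11.1 for the second Gm10717 region and 10.3 for Gm10722. GC content was 33.8% to 35.5% in the 4 regions of predicted genes, of whose bases 80.4% to 100% were marked as repeat. Reads of such DNA may belong to other copies, since the authors had kept up to 20 alignments per read, so these values are uncertain as values of the named genes. In all, 46 genes had 2 or more promoter regions, led by Duxf3, Gm21738 and Gm10717 with 4 each. The GC contrasts in detection, fold enrichment and summit distance passed their tests without the 102 regions of these genes too, at -8.97 percentage points, -0.293 and -337 bp.

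Promoter regions as a whole were found somewhat less often than other consensus regions. A peak was present at 25.3% to 48.6% of the promoter regions and at 23.9% to 56.9% of the others in the 10 libraries. The mean difference was -2.74 percentage points (SD 3.20, n = 10, exact paired permutation test, two-sided, p = 0.0273, adjusted p = 0.0456), and promoter regions were the lower ones in 8 of 10 libraries. Here too the regions had been chosen by detection in these libraries, and the test covers agreement between libraries alone. The difference was 0.0142 with peaks of q under 0.001 and 0.0367 with regions found in at least 3 libraries, and without single libraries its exact permutation p was 0.0352 to 0.0938. The median fold enrichment was 3.97 at promoter regions and 4.08 at the others as a mean over libraries, a difference of -0.112 (SD 0.0729, n = 10, exact paired permutation test, two-sided, p = 0.00391, adjusted p = 0.0195), lower in 9 of 10 libraries and equal in F0 CD replicate 3. With regions found in at least 3 libraries this difference was -0.0170 and did not pass.

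The diets did not differ in the number or the GC content of the promoter regions beyond the spread between mice. Promoter regions found per library numbered 262, 448, 307, 320, 240 and 347 in F0 CD replicates 1 to 6 and 325, 280, 332 and 233 in F0 WD replicates 1 to 4. The values of F0 WD lay below the highest of F0 CD, and the ranges overlapped. For F0 CD, detection was 34.8% ± 7.98 (SD, n = 6), and for F0 WD it was 31.7% ± 4.98 (SD, n = 4), a difference of -3.05 percentage points (exact two-sided permutation test, p = 0.567, adjusted p = 0.810). Of the consensus regions found in a library, promoter regions made up 3.48% ± 0.246 (SD, n = 6) with F0 CD against 3.57% ± 0.360 (SD, n = 4) with F0 WD (difference 0.0843 percentage points, exact two-sided permutation test, p = 0.662, adjusted p = 0.827). GC-rich regions numbered 8, 16, 20, 19, 11 and 10 in the F0 CD libraries and 10, 8, 17 and 13 in the F0 WD libraries. They made up 4.42% ± 1.53 (SD, n = 6) and 4.16% ± 1.39 (SD, n = 4) of the promoter regions found, a difference of -0.265 percentage points (exact two-sided permutation test, p = 0.776, adjusted p = 0.862). The gap in detection between GC-rich and other promoter regions was -10.4 percentage points ± 10.3 (SD, n = 6) for F0 CD and -11.0 ± 8.09 (SD, n = 4) for F0 WD, and the test of the difference between the diets gave an exact two-sided permutation p = 0.914 (difference -0.550, adjusted p = 0.914). With 6 and 4 mice the smallest p of this test is 0.00476.

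Region by region, detection in the mice of each diet was compared by Fisher's exact test over the 24550 consensus regions. At an unadjusted p under 0.05, 4 promoter regions (0.434%) were found more often in F0 WD, where the share over the consensus regions was 0.558%, and 3 (0.325%) more often in F0 CD, where it was 0.473%. Both shares were near the background. A region found in 2 libraries cannot pass, since its p is 0.133 at the least. Regions found in 8, 9 or 10 libraries (21, 16 and 34 promoter regions) cannot pass either, as their p is also 0.133 or more. Found in 3 or more libraries were 417 of the 922 promoter regions (45.2%) and 13281 of the consensus regions (54.1%). These counts are upper limits of the regions that could pass. A pass towards F0 CD needs at least 5 libraries, since 4 F0 CD libraries alone give p = 0.0762 (Fisher's exact test). Of the 56 GC-rich promoter regions, 45 were found in 2 libraries and could not be tested, and of the other 11 none passed. Leaving out 1 library moved the counts of promoter regions that passed to between 2 and 9 for F0 WD and 2 and 10 for F0 CD, where the shares over all consensus regions moved as well, to 0.372% to 1.20% and 0.488% to 1.24%. The highest counts, 9 for F0 WD without F0 CD replicate 2 and 10 for F0 CD without F0 CD replicate 5, were 1.19% of the promoter regions each, beside 1.20% and 1.24% of the consensus regions. After Benjamini-Hochberg adjustment the smallest p was 1 and no region passed. The smallest Fisher p that 6 and 4 libraries can give is 0.00476, so over 24550 regions a pass needs many regions at such values. Under 0.05 there were 137 consensus regions in the F0 WD direction and 116 in the F0 CD direction. Of the promoter regions, 633 had peaks in both diets, 223 in F0 CD alone and 66 in F0 WD alone, from 6 and 4 libraries. These are 68.7%, 24.2% and 7.16%, beside 72.8%, 21.9% and 5.29% of all consensus regions.

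The 4 regions found more often in F0 WD had peaks in 3 of 4 F0 WD libraries and in no F0 CD library (Fisher's exact test, p = 0.0333 each). Of these, 3 are described. For Sema4d, the region (chr13:51734027-51734304) held 16, 13 and 21 reads in F0 WD replicates 2, 3 and 4, and its product is a semaphorin that binds plexin receptors. In the same libraries the region of Ddx47 (chr6:135017529-135018051), an RNA helicase of ribosome assembly, held 12, 16 and 17 reads, and that of Unc13a (chr8:71672605-71672944), a priming factor of synaptic vesicles, 12, 19 and 16. The summits at Sema4d and Ddx47 were in introns and that at Unc13a outside protein-coding transcripts, 610 bp downstream of the start for Sema4d and upstream, at -1052 and -963 bp, for Ddx47 and Unc13a. The share of bases marked as repeat was 23.7% at Sema4d, 11.5% at Ddx47 and 92.4% at Unc13a.

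The Slc6a12 region (chr6:121346979-121347440) held 16, 15, 18, 20, 22 and 21 reads in F0 CD replicates 1 to 6 and 17 reads in F0 WD replicate 3 (Fisher's exact test, p = 0.0333). The F0 WD value lay within the range of F0 CD. The region of Cdk15 (chr1:59258013-59258637), of the cyclin-dependent kinase family, was found in the same number of libraries, with 17, 19, 19, 14, 18 and 18 reads in F0 CD and 14 in F0 WD replicate 2. The region of Adamts15 (chr9:30910044-30910426), a secreted metalloproteinase, held 19, 14, 23, 18 and 14 reads in F0 CD replicates 1, 2, 3, 4 and 6 and had no peak in F0 WD (p = 0.0476, Fisher's exact test). Repeats covered 62.6%, 89.6% and 97.7% of these regions. The fold enrichment of the 6 regions described was 2.89 to 5.78 in single libraries, within the range of other promoter regions.

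The promoter regions that the study had listed as changed were chosen on these same samples and are not independent evidence. They come from its printed lists of top regions, so other promoter regions that it called, at an unadjusted p under 0.05, are not covered. The study listed Gstk1 as more open with the Western diet and the other listed regions below as less open. Each listed region was found in 2 libraries, the fewest possible, and a region found in 2 libraries cannot pass the test used here, so the test says nothing about them. The region of Hes1 (chr16:30066550-30066799), a transcriptional repressor downstream of Notch, is the GC-rich one among them with 62.8%. It held 17 and 16 reads in F0 CD replicates 1 and 2 (Fisher's exact test, p = 0.467). Gpx5 (chr13:21292934-21293429), a glutathione peroxidase of the epididymis, held 15 and 19 reads in F0 CD replicates 5 and 6. Caprin2 (chr6:148895580-148895798), an RNA-binding protein, held 16 and 15 reads in F0 CD replicates 1 and 6, and Gnb4 (chr3:32597486-32597763), a G protein subunit, 18 in each of F0 CD replicates 3 and 6. The region of Ttc23 (chr7:67667199-67667441) held 16 and 14 reads in F0 CD replicates 1 and 6. Gstk1, a glutathione transferase, had its region in F0 WD replicates 1 and 2 (Fisher's exact test, p = 0.133), over a start and with 58.0% GC. For the calcium channel subunit gene Cacnb2, the listed region (chr2:14981514-14981725) was found in F0 CD replicates 4 and 6 alone, with 16 and 18 reads. A second Cacnb2 region (chr2:14605666-14605932), which the study did not list, was found in 1 library of each diet, with 17 and 14 reads.

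In most lists of genes that every cell uses, the share with a promoter region was below that of all protein-coding genes. This was not particular to them, as developmental transcription factors (2.53%), Zfp genes (2.87%) and olfactory receptors (1.93%) were below it too. Of the 868 genes with a promoter region, none was among 79 cytosolic ribosomal proteins, 45 spliceosome genes or 67 histone genes. There was 1 in 78 mitochondrial ribosomal proteins (Mrps9), 1 in 47 proteasome subunits (Psmc4), 1 in 52 translation initiation factors (Eif3g), 2 in 41 genes of RNA polymerase II and Mediator (Med10 and Med16) and 1 in 43 genes of respiratory complex I (Ndufc2). These shares ran from 0% to 4.88%, beside the 4.17% of all protein-coding genes, and 46.8% to 71.2% of the genes of these lists, histones apart, had a GC-rich start. A peak within 1 kb in any library was present at 0% (histones) to 23.4% (proteasome subunits) of the genes of a list, against 22.7% of all genes. The differences were not tested. The Med10 region, with 61.3% GC, was the GC-rich one among them. Each was found in 2 or 3 libraries.

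Of 158 developmental transcription factors 4 had a promoter region (2.53%), Foxi1, Foxp1, Foxp4 and Lhx2. The first 3, of the forkhead family, were found in 2 F0 CD libraries each, and Lhx2 in 1 library of each diet. Of 383 zinc finger genes of the Zfp series 11 had one (2.87%), led by Zfp513 in 6 libraries and Zfp583 in 5. Of 1087 olfactory receptors 21 had one (1.93%), led by Olfr279 in 9 libraries (chr15:98496558-98497286), with 16 to 25 reads, in DNA of which 89.4% was marked as repeat. No olfactory receptor had a GC-rich start, and the region of Olfr1344 was nevertheless GC-rich (65.7%). Of 30 genes of insulin signalling and energy metabolism 3 had one (10.0%, above the 4.17% of all protein-coding genes), a share that rests on 3 genes and was not tested. They were the insulin receptor gene Insr in 2 libraries of each diet, and the kinase genes Akt2 in 1 F0 CD and 2 F0 WD libraries and Akt1 in 2 F0 CD libraries. Of 30 imprinted genes 1 had one (3.33%), Usp29, a ubiquitin protease gene expressed from the paternal allele, in 3 F0 CD and 4 F0 WD libraries with 10 to 15 reads. No gene of these lists passed the test between the diets.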

How the data were processed

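Sperm ATAC-seq of 6 F0 CD and 4 F0 WD males was taken from the narrowPeak lists that the authors had deposited, 1 per library. Per the study's methods and the submitters' processing notes, reads were trimmed with Trim Galore 0.6.10 and aligned to mm10 with Bowtie2 2.4.5, keeping up to 20 alignments per read. Duplicates were removed with Picard 2.24.0, alignments of quality under 5 with SAMtools, ends were shifted for the transposase, and fragments of 50 to 115 bp were kept. Peaks were called in each library separately with MACS2 2.2.7.1 at q under 0.05, with a shift of -100 bp and an extension of 200 bp. The deposited columns used are the fold enrichment at the summit (a ratio), -log10 p, -log10 q and the summit position, and the score column deposited by the authors was not used.

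From these lists, Python 3.11.15 with pandas 2.3.3, SciPy 1.17.1 and pysam 0.24.0 merged peaks into consensus regions. Regions were assigned by GENCODE M21 starts, and GC content and repeat marks were read from GRCm38.p6. Reads at a summit were solved from fold enrichment and p-value with a pseudocount of 1, up to a -log10 p of 60. The study's count model could not be run on peak lists. Instead, regions were compared by Fisher's exact test over all 24550 consensus regions, and values per library by exact permutation over the 210 divisions into 6 and 4 libraries, or over the 1024 sign changes of paired differences, with Benjamini-Hochberg adjustment over the 10 tests. Calculations were tested on simulated data. The 4 replicate numbers shared by the diets were not treated as pairs, since the labels do not say that they pair the mice. The correlations of their deviations were -0.0180 to 0.0369, and whether they share a batch was not tested. A statement in the labels gives 4 F0 CD and 6 F0 WD replicates, and the sample titles, used here, give 6 and 4.

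Named regions were those that passed Fisher's test, the strongest found in all 10 libraries, members of fixed gene lists found in the most libraries, promoter regions listed by the study, and the 3 regions on each side of 60% GC. As no GC-rich region was found in all 10 libraries, those found in 4 or more were named instead, after their values were seen. The promoter regions, gene lists and tests were chosen with earlier results of these data known. Some items are not reported here.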

Additional observations from a re-analysis of the deposited data

Results flagged for a closer look

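On chromosome X, outside the autosomes compared above, 8 of 58 regions found in 2 or more libraries (13.8%) met the promoter rule, and none was GC-rich. They lay at Adgrg4, Drp2, Asmt and, with 5 regions, Mid1.

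A further 4698 promoter regions of the autosomes were found in 1 library alone, 5.31% of 88543 such regions. Of these, 648 (13.8%) were GC-rich, against 6.07% of the promoter regions found in at least 2 libraries. The share was 9.03% to 17.6% in the single libraries. This difference was not tested.

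Of the 40 groups of libraries examined, none held a value far from the others by the gap to its neighbour over the range, a criterion that chance meets in about 1 group in 20.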

How the results depend on the processing

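The lower detection, the lower fold enrichment and the shorter summit distance of GC-rich promoter regions kept their direction under the 20 alternatives run for each, and passed p under 0.05 in 19, 19 and 20. Leaving out 1 library gave -11.9 to -9.19 percentage points, -0.387 to -0.271 and -352 to -284 bp. For peak width the 12 alternatives that lost p under 0.05 included -18.7 bp with q under 0.001, -16.5 bp with equal lists, -16.9 bp with at least 3 libraries, -10.0 bp within 500 bp, -9.45 bp at 55% GC, -10.6 bp at 65% GC and -9.80 bp without genes with several regions, an alternative added after the data were seen. Without single libraries it was -19.5 to -2.39 bp.

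At 65% GC the detection difference was -10.4 percentage points, and with equal lists the fold difference was -0.198, neither passing. Promoter against other regions in detection was -1.21 percentage points with equal lists, -3.19 within 500 bp, 0.0142 with q under 0.001 and 0.0367 with at least 3 libraries, and -2.74 to -2.18 without single libraries. In fold enrichment it was -0.0170 with at least 3 libraries and -0.122 to -0.0864 without single libraries.

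No comparison of the diets passed in any alternative, and signs changed. The promoter share differed by -0.0105 percentage points with at least 3 libraries, -0.0466 within 500 bp and -0.0175 to 0.240 without single libraries. The GC-rich share differed by 0.217 with q under 0.01, 0.205 with q under 0.001, 0.303 with equal lists, 0.452 with at least 3 libraries, 0.0992 with an overlap of 100 bp, 2.25 at 55% GC and -0.745 to 0.299 without single libraries. The GC gap in detection differed between the diets by 2.10, 3.81, 2.71, 10.3, 1.62 and 4.76 under the same settings, and by -3.95 to 2.19 without single libraries. Promoter detection was -5.28 to -0.423 percentage points without single libraries.

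The count of promoter regions found more often in F0 WD was 2 within 500 bp (0.382%, beside 0.558% of the consensus regions) and 2 to 9 without single libraries. It was 9 without F0 CD replicate 2 (1.19% beside 1.20%), 7 without F0 CD replicate 3 (0.874% beside 0.762%) and 2 without F0 WD replicate 2 (0.235% beside 0.372%) or 3 (0.251% beside 0.414%). The count for F0 CD was 5 with q under 0.01 (0.628% beside 0.471%), 9 with the mid-p version (0.976% beside 1.41%) and 2 to 10 without single libraries. It was 10 without F0 CD replicate 5 (1.19% beside 1.24%) and 7 without F0 CD replicate 1 (0.824% beside 1.02%) or 3 (0.874% beside 1.22%). The labels do not say whether replicates of the same number share more than the number. With the replicate number as a block, 0 regions passed in each direction, because 4 pairs cannot give a sign test p under 0.125. The other diet differences stayed on their side of the threshold. The cause of these changes was not tested.

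The number of promoter regions was 417 to 921 and of GC-rich ones 11 to 221 under the alternatives. Depth limits the lists: a median of 15 reads at GC-rich summits against 9 to 13 for the weakest called summits leaves little margin, so a region missing from a list is not shown to be closed.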
